A study of Mus musculus with 6 samples.

Results

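Dual-specificity phosphatases, Sprouty proteins and ETS factors that act as brakes on, or outputs of, ERK signalling were examined in mouse embryonic stem cells depleted of Tdg. The set held 10 genes of the 19938 measured under a single gene symbol: Dusp4, Dusp5, Dusp6, Spry1, Spry2, Spry4, Spred1, Etv4, Etv5 and Ier3. They were chosen by name, with earlier results of these data known. The shares of all genes given beside their counts are therefore description and no test of the set. For a gene with several array rows the row with the highest mean over all arrays was used. Only Etv5 had 2 rows, and no row listed any of the 10 together with another gene.

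Transcript levels were read on Affymetrix whole-transcript arrays, and the files give a log2 signal per row and array. The groups were Tdg knockdown E14 cells (3 arrays) and control E14 cells (3 arrays). E14 is a mouse embryonic stem cell line, and the Tdg protein is thymine DNA glycosylase, which starts base excision repair at mismatched thymine. The protocol common to all 6 samples describes culture on 0.1% gelatin with 15% serum and LIF at 1000 units/ml, lentiviral infection (multiplicity 10) and puromycin at 2 ug/ml from 48 h onwards. The sources used here state neither the inserts of the vectors nor whether replicates were grown as separate cultures. The p-values below therefore reflect the spread between arrays, which could be technical. Titles and design name Tdg, whereas the text on RNA extraction mentions knockdown of Kdm2b.

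In the canonical pathway, fibroblast growth factors and other ligands activate receptor tyrosine kinases, which pass the signal through RAS, RAF and MEK to the kinase ERK. Active ERK induces its own inhibitors: phosphatases that remove its activating phosphates, and Sprouty and Spred proteins that act upstream at the level of RAS and RAF. In embryonic stem cells, FGF4 acting through ERK is known for promoting exit from the naive pluripotent state, and transcripts such as Dusp6, Spry4 and Etv4 are commonly read as its outputs.

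The signal of Tdg was 8.24, 8.16 and 7.93 in the knockdown samples, against 11.12, 11.20 and 11.10 in control arrays, as the mean of 4 rows shared with the pseudogene Tdg-ps2. The difference was -3.03 (SE 0.09, limma adjusted p 8.79e-05, exact permutation p 0.1, the smallest that 3 arrays against 3 allow), which leaves 12.2% of the control signal. Knockdown replicate 3 stood apart on the first principal component, at 31.01 against -17.46 to 5.17 for the other arrays, so values without it are given beside the results. The 9 embryonic stem cell markers were all bright, with a summed linear signal of 51425 to 54347 in knockdown arrays and 52729 to 55036 in control arrays, and 0 of the 9 were called by limma or had an unadjusted p under 0.05. Their dimmest row, that of Klf4, averaged 10.45, against column medians of 7.41 to 7.48 over all rows. The smallest p-values among these markers were those of Klf4 (difference 0.09, limma adjusted p 0.651) and Sox2 (-0.10, adjusted p 0.691). In a bulk sample, fewer cells of a type and less RNA per cell cannot be told apart.

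Every difference below is knockdown minus control on the log2 scale, from limma, a linear model fitted to all named genes at once, and p-values are adjusted over those genes by the Benjamini-Hochberg method. None of the 10 genes passed an adjusted p of 0.05, against 0.792% of all named genes (0.241% higher and 0.552% lower). The 3 with the largest differences were Dusp4 and Ier3, with lower signal in knockdown arrays, and Etv4, with higher signal. Their groups did not overlap, and all 3 passed when the replicate number was used as a block, which compares arrays of the same number with each other, where 3.08% of all named genes passed. Differences of at least 0.3 in either direction were seen for these 3 of the 10 genes and for 5.07% of all named genes. At an unadjusted p under 0.05 there were 4 of the 10, Dusp5 being the fourth, against 12.5% of all named genes. The 10 genes did not move one way: 5 lay above 0 and 5 below, with a median difference of -0.01. Among all named genes 11063 lay above 0 and 8875 below, with a median of 0.02. The median size of the difference, regardless of sign, was 0.13 for the 10 genes and 0.09 for all named genes.

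**Figure D1:**
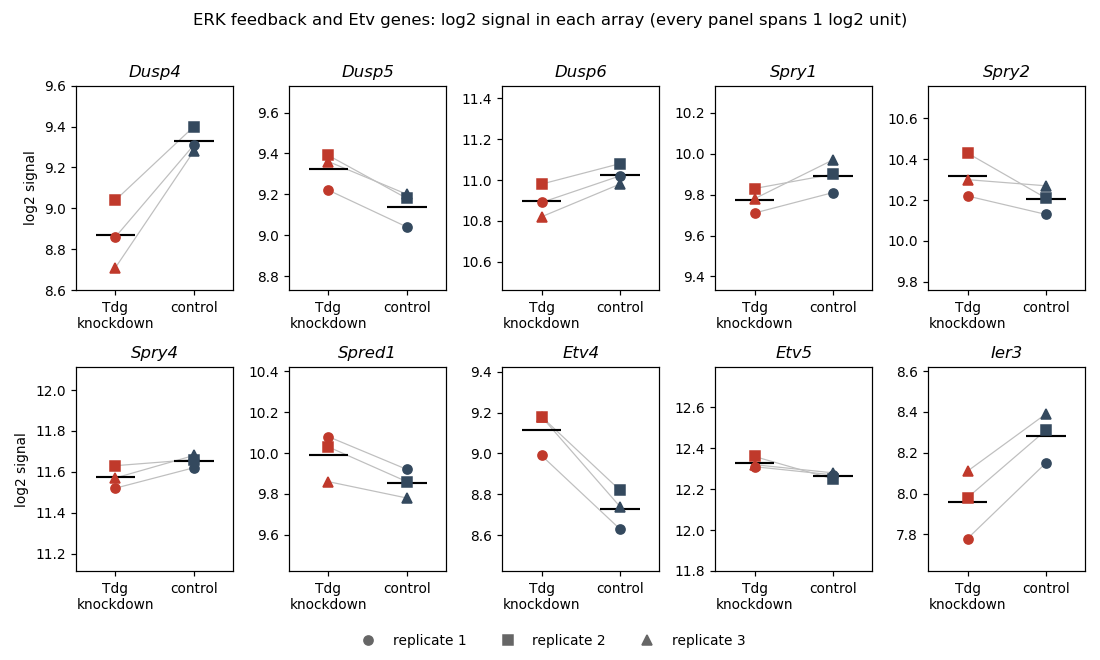
Log2 signal (vertical axis) of the 10 genes in the 3 Tdg knockdown arrays (red) and the 3 control arrays (dark), with black bars for group means and grey lines joining arrays of the same replicate number; each panel spans 1 log2 unit. Dusp4 and Ier3 lie lower and Etv4 higher in every knockdown array than in any control array.

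Dusp4 encodes a nuclear phosphatase that inactivates ERK and related MAP kinases. Its signal was 8.86, 9.04 and 8.71 in knockdown arrays, against 9.31, 9.40 and 9.28 in control arrays. The highest knockdown array lay below the lowest control array. The means were 8.87 ± 0.17 in knockdown cells and 9.33 ± 0.06 in control cells (SD, n = 3 each), a difference of -0.46 with a 95% interval of -0.68 to -0.24. This leaves 72.7% of the control signal, with a limma adjusted p of 0.0891, or 0.0295 with the replicate block. Without knockdown replicate 3, the lowest of the 6 arrays, the difference was -0.38 (adjusted p 0.0764).

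Dusp5 and Dusp6 encode phosphatases that act specifically on ERK, in the nucleus and in the cytoplasm in that order. Dusp5 had a signal of 9.22, 9.39 and 9.36 in knockdown arrays, against 9.04, 9.18 and 9.20 in control arrays. The groups were separated by a narrow margin, since the lowest knockdown array lay 0.02 above the highest control array. The difference was 0.18 (95% interval 0.001 to 0.37), and the limma adjusted p was 0.396, or 0.124 with the replicate block. Dusp6, often used as a readout of ERK activity, had a signal of 10.89, 10.98 and 10.82 in knockdown arrays, against 11.02, 11.08 and 10.98 in control arrays. The groups met at 10.98, the highest knockdown and the lowest control value. The difference was -0.13 (95% interval -0.29 to 0.03, limma adjusted p 0.521, or 0.224 with the replicate block).

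Within the phosphatases, the values of Dusp4 and Dusp6 thus lay below 0 and that of Dusp5 above 0, in each of the 3 numbered pairs of arrays. Knockdown minus control was -0.45, -0.36 and -0.57 for Dusp4 and -0.13, -0.10 and -0.16 for Dusp6. For Dusp5 it was 0.18, 0.21 and 0.16. The 3 genes lie on separate chromosomes, 8 for Dusp4, 19 for Dusp5 and 10 for Dusp6.

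The promoters of Dusp5 and Dusp6 are shown because their estimated differences had opposite signs, although neither gene was called, with or without the block. Whether the promoters bear on the differences was not tested. The 250 bases before each annotated start were taken from RefSeq (GRCm38.p6), at chr19:53528895-53529144 for Dusp5 and at chr10:99262981-99263230 for Dusp6, both on the plus strand. Capitals mark matches, on either strand, to the letters CGGAAG (ETS factors), TGACGT (cAMP response element), TGANTCA (AP-1) and GGGCGG (SP and KLF factors), and to the CArG box, the element bound by serum response factor.
Dusp5: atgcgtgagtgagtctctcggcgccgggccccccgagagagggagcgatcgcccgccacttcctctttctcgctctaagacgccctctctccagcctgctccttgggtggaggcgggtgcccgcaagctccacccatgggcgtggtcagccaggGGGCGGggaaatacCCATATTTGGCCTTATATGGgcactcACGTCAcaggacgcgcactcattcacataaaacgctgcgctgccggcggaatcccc
Dusp6: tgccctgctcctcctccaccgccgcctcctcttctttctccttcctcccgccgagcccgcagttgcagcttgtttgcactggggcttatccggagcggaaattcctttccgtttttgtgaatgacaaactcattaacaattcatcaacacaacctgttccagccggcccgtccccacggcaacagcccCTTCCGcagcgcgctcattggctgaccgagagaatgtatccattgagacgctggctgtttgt
In Dusp5 2 CArG boxes adjoin each other, starting 82 and 72 bases before the start, and TGACGT is read on the opposite strand 56 bases before it. In Dusp6 a single ETS match lies on the opposite strand, 62 bases before the start. A match is a description of the letters and shows no binding.

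The Sprouty genes did not separate the groups. Spry1 had a signal of 9.71, 9.83 and 9.78 in knockdown arrays, against 9.81, 9.90 and 9.97 in control arrays. The groups overlapped, and the difference was -0.12 (95% interval -0.29 to 0.05, limma adjusted p 0.573). Spry4 had 11.52, 11.63 and 11.57 in knockdown arrays, against 11.62, 11.66 and 11.68 in control arrays. Only knockdown replicate 2 reached the range of the controls. The difference of Spry4 was -0.08 (95% interval -0.22 to 0.06, limma adjusted p 0.690).

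Spry2, the third Sprouty gene, lay on the other side of 0. Its signal was 10.22, 10.43 and 10.30 in knockdown arrays, against 10.13, 10.21 and 10.27 in control arrays. Knockdown replicate 1 fell inside the range of the controls. The difference was 0.11 (95% interval -0.07 to 0.30, limma adjusted p 0.646). Spred1, which recruits neurofibromin to switch RAS off, had a signal of 10.08, 10.03 and 9.86 in knockdown arrays, against 9.92, 9.86 and 9.78 in control arrays. The overlap rested on knockdown replicate 3, which equalled the second control array. The difference of Spred1 was 0.14 (95% interval -0.05 to 0.33, limma adjusted p 0.575), and 0.20 without that array (adjusted p 0.227). For these 4 genes the intervals reach as far as -0.29 and 0.33, so equal levels are not shown.

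Etv4 and Etv5 encode closely related ETS transcription factors of the PEA3 group, which FGF signalling induces in many embryonic tissues. The signal of Etv4 was 8.99, 9.18 and 9.18 in knockdown arrays, against 8.63, 8.82 and 8.74 in control arrays. Every knockdown array lay above every control array. The means were 9.12 ± 0.11 in knockdown cells and 8.73 ± 0.10 in control cells (SD, n = 3 each), a difference of 0.39 with a 95% interval of 0.19 to 0.58. The signal was 131% of control, with a limma adjusted p of 0.101, or 0.0305 with the replicate block. Without knockdown replicate 3 the difference was 0.36 (adjusted p 0.114).

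Etv5 was measured by 2 rows, and where each lies in the genome was not checked. The brighter row, used here, had 12.31, 12.36 and 12.32 in knockdown arrays, against 12.27, 12.25 and 12.28 in control arrays. The groups did not overlap, yet the difference was only 0.06 (95% interval -0.07 to 0.20, limma adjusted p 0.738). The other row had 11.27, 11.32 and 11.36 in knockdown arrays, against 11.25, 11.26 and 11.31 in control arrays, a difference of 0.04 with overlapping groups. The separation of the groups for Etv5 thus held in 1 of its 2 rows. The interval of Etv4 begins at 0.19 and that of Etv5 ends at 0.20, and the difference between the 2 genes was not tested.

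Ier3 encodes an immediate early protein that ERK phosphorylates and that takes part in cell survival. Its signal was 7.78, 7.98 and 8.11 in knockdown arrays, against 8.15, 8.31 and 8.39 in control arrays. The groups did not overlap, although knockdown replicate 3 came within 0.04 of control replicate 1. The means were 7.96 ± 0.17 in knockdown cells and 8.28 ± 0.12 in control cells (SD, n = 3 each), a difference of -0.33 with a 95% interval of -0.57 to -0.08. This leaves 79.7% of the control signal, with a limma adjusted p of 0.249, or 0.0393 with the replicate block. Without knockdown replicate 3 the difference was -0.40 (adjusted p 0.107).

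The promoter of Ier3 is shown because Ier3 was among the 3 genes called with the block. The 250 bases before the start are at chr17:35821463-35821712 on the plus strand (GRCm38.p6), with capitals for the same motifs.
Ier3: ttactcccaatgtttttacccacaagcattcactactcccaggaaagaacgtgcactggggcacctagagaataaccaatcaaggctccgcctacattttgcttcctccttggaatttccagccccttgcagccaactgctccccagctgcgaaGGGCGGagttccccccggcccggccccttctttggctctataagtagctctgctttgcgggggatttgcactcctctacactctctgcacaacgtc
The single match was GGGCGG, 96 bases before the start. Of the 10 genes, 7 have windows in the table, 8 windows in all because Etv5 has 2 annotated starts, each covering 300 bases from 250 before to 50 after the start. Dusp4 and Etv4, which were also called with the block, and Spry4 have no window, so the counts below leave them out. On either strand, CGGAAG was in 2 of the 8 windows (Dusp6 and Spred1), against 16.9% of all 32851 windows. GGGCGG was in 5 of 8 against 35.7%, TGACGT in 1 of 8 against 7.5%, TGANTCA in 0 of 8 against 7.8%, and a CArG box in 1 of 8 against 1.6%. No match says only that these letters are not in the window.

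**Figure D2:**
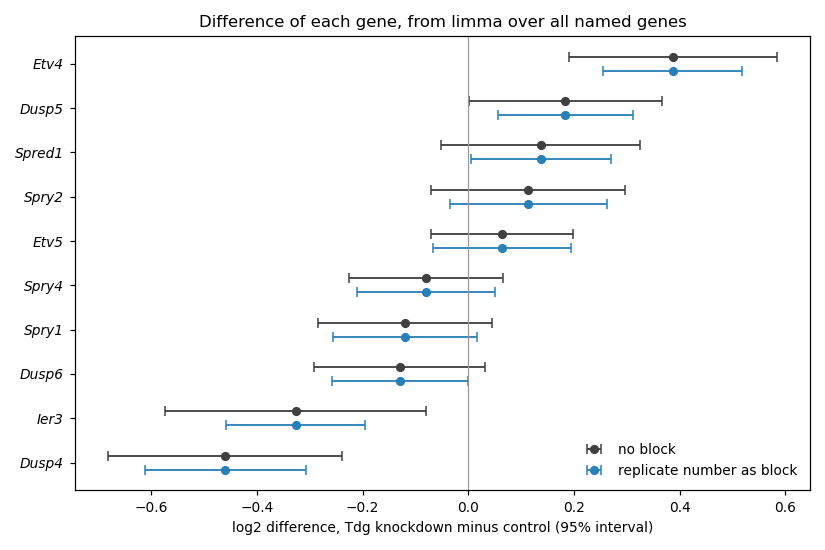
Log2 difference of each gene, Tdg knockdown minus control (horizontal axis), with 95% intervals from limma without a block (grey) and with the replicate number as a block (blue), ordered by the difference. The intervals of Etv4, Dusp5, Ier3 and Dusp4 lie on one side of 0 in both fits before any adjustment, and those of Spred1 and Dusp6 only with the block.

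Across the set, the groups did not overlap for 5 of the 10 genes: Dusp4 and Ier3 lower in knockdown arrays, and Dusp5, Etv4 and Etv5 higher. Among all named genes the groups did not overlap for 19.0%, with 7.98% higher and 11.0% lower. Each of the 10 genes had the same sign in all 3 numbered pairs, as did 43.2% of all named genes. With the replicate block, 1 of the 10 was called higher and 2 lower, against 1.07% and 2.01% of all named genes. For Ier3 the array numbered 1 was the lowest and the array numbered 3 the highest of each group, and the blocked interval was -0.46 to -0.20. The blocked values hold only if equal numbers mark samples that belong together, which no label states. With both arrays of a number left out, a choice made after seeing the data, the blocked differences were -0.51 to -0.41 for Dusp4, 0.36 to 0.40 for Etv4 and -0.35 to -0.31 for Ier3, and none of the 10 passed. With all 6 arrays and no block, leaving out the 33.3% of genes with the lowest mean called Dusp4 lower and Etv4 higher (3.34% of the genes tested were called), and a trended robust prior called Dusp4 lower (2.24% were called). In the blocked fits of 4 arrays no named gene passed, and Tdg itself did not either (adjusted p 0.168 to 0.280).

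**Figure D3:**
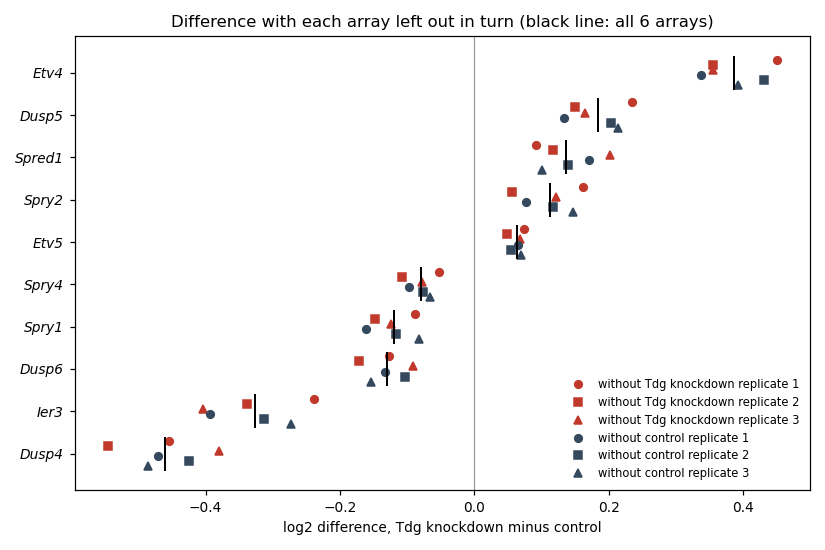
Log2 difference, Tdg knockdown minus control (horizontal axis), of each gene when 1 of the 6 arrays is left out, with red symbols for knockdown arrays left out and dark symbols for control arrays left out; the black line is the value from all 6 arrays. No symbol crosses 0, which was not counted for all named genes, and Dusp4 ranges from -0.55 to -0.38.

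Leaving out each array in turn turned the direction of none of the 10 genes. The refits share most of their arrays, so a kept direction is partly built in. How many of all named genes kept theirs was not counted, so this is no trait of the set. Over the 6 refits the difference ranged from -0.55 to -0.38 for Dusp4, from 0.34 to 0.45 for Etv4 and from -0.40 to -0.24 for Ier3. Among the genes with small differences, Spry2 ranged from 0.06 to 0.16 and Spry4 from -0.11 to -0.05. Without knockdown replicate 3 the smaller differences were 0.17 for Dusp5, -0.09 for Dusp6, -0.12 for Spry1, 0.12 for Spry2, -0.08 for Spry4 and 0.07 for Etv5. No gene of the set passed in any of the 6 refits, with adjusted p from 0.0764 to 0.397 for Dusp4. This says little about the set, because few genes of any kind passed in most refits. Of all named genes 0 were called without knockdown replicate 1, control replicate 1 or control replicate 2. Without knockdown replicate 2, 0 were called higher and 4 lower, and without control replicate 3, 2 and 13. Without knockdown replicate 3 there were 132 and 159. The median of the 10 genes against the control mean was -0.06, 0.04 and -0.04 in knockdown arrays 1 to 3, with -0.05, 0.02 and 0.02 in control arrays 1 to 3, so in no array did the median lie more than 0.06 from 0.

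The rest of the pathway was read from lists of ligands, receptors, signal transducers and other targets, each described by its counts. Of 17 FGF ligands 0 were called by limma and 4 had an unadjusted p under 0.05, against 12.5% of all named genes. Their median difference was 0.04, or -0.02 without knockdown replicate 3, and ran from -0.02 to 0.14 on leaving out 1 array. Fgf5, a marker of the epiblast that leaves the naive state, had 8.37, 8.55 and 8.19 in knockdown arrays, against 8.93, 8.94 and 8.97 in control arrays. All 3 knockdown arrays lay below the controls, and the difference was -0.58 (SE 0.10, limma adjusted p 0.0536, 0.0329 with the replicate block and 0.0337 without knockdown replicate 3). Fgf2, whose row was dim, showed 0.36 (adjusted p 0.232), or 0.24 without knockdown replicate 3 (adjusted p 0.130).

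Of 17 receptors upstream of ERK 0 were called by limma and 7 had an unadjusted p under 0.05, against 12.5% of all named genes. Values lay below 0 for 16 of the 17 receptors and for 8875 of the 19938 named genes. The median was -0.16, against 0.02 over all named genes. With the replicate block 2 were called lower, Igf1r and the insulin receptor gene Insr (-0.45, adjusted p 0.0392), against 2.01% of all named genes. Igf1r, the receptor for insulin-like growth factor, had 9.01, 9.08 and 8.76 in knockdown arrays, against 9.65, 9.44 and 9.39 in control arrays. The groups did not overlap, and the difference was -0.54 (SE 0.11, limma adjusted p 0.0853, or 0.0295 with the block). The epidermal growth factor receptor gene Egfr showed -0.32 (limma adjusted p 0.140, or 0.0567 with the block). The median of the receptors was -0.13 without knockdown replicate 3.

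Of 26 genes for adaptors and the RAS, RAF, MEK and ERK cascade, 18 had a row of their own, 0 were called by limma and 1 had an unadjusted p under 0.05, against the same 12.5%, with a median of -0.05, or -0.0075 without knockdown replicate 3. The 8 others were not analysed here. The smallest p-values were those of the RAS activator Sos2 (-0.18, limma adjusted p 0.314) and the receptor adaptor Frs3 (-0.11, adjusted p 0.593). Of 17 further feedback inhibitors and MAP kinase phosphatases 0 were called by limma, also with the block, 4 had an unadjusted p under 0.05, and the median was -0.06, or -0.02 without knockdown replicate 3. Il17rd, also known as Sef, an inhibitor of FGF signalling, had 9.87, 9.91 and 9.84 in knockdown arrays, against 10.13, 10.09 and 10.16 in control arrays. The groups did not overlap, and the difference was -0.25 (SE 0.06, limma adjusted p 0.123, or 0.0748 with the block). These values are from the brightest row of Il17rd. With the mean of its rows the difference was -0.23 (limma adjusted p 0.323). The phosphatase gene Dusp14 showed -0.15 (limma adjusted p 0.371).

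Of 19 other ETS factors 0 were called by limma, also with the block, 3 had an unadjusted p under 0.05, against 12.5% of all named genes, and the median was 0.02, with 11 above 0 and 8 below. Elk3, a partner of serum response factor, showed -0.30 (limma adjusted p 0.0949, or 0.0398 with the 33.3% of genes of lowest mean left out) and Ets2 -0.27 (adjusted p 0.196). The third of them, Erf, an ETS repressor that ERK phosphorylates, lay the other way at 0.22 (adjusted p 0.277, or 0.0867 with the block). The 22 genes listed as immediate early genes include rapid targets of ERK, but not every one is such a target. Of the 22, 2 rose and 0 fell, against 0.241% and 0.552% of all named genes, with a median of 0.06. Values lay above 0 for 13 of the 22 and below 0 for 9. At an unadjusted p under 0.05 there were 7, against 12.5% of all named genes. Egr1 had 10.81, 10.85 and 10.86 in knockdown arrays, against 9.97, 9.94 and 10.08 in control arrays, and Fos had 7.89, 7.99 and 8.11 in knockdown arrays, against 7.02, 7.04 and 7.41 in control arrays. Both differences were 0.84 (limma adjusted p 0.00803 for Egr1 and 0.0360 for Fos). Either call was lost on leaving out knockdown array 1 or 2 or control array 1 or 2 (adjusted p 0.0589 to 0.0841 for Egr1 and 0.114 to 0.219 for Fos). With the block 4 immediate early genes rose, with Egr2 (0.51, adjusted p 0.0337) and Fosb (0.30, adjusted p 0.0441) beside these, against 1.07% of all named genes. Ier2 lay on the same side at 0.30 (limma adjusted p 0.161, or 0.0537 with the block), with no overlap between the groups. Phlda1 lay the other way at -0.46 (limma adjusted p 0.100, or 0.0531 with the block), with no overlap between the groups. So did Fosl2 at -0.18 (limma adjusted p 0.3715), also with no overlap.

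**Figure D4:**
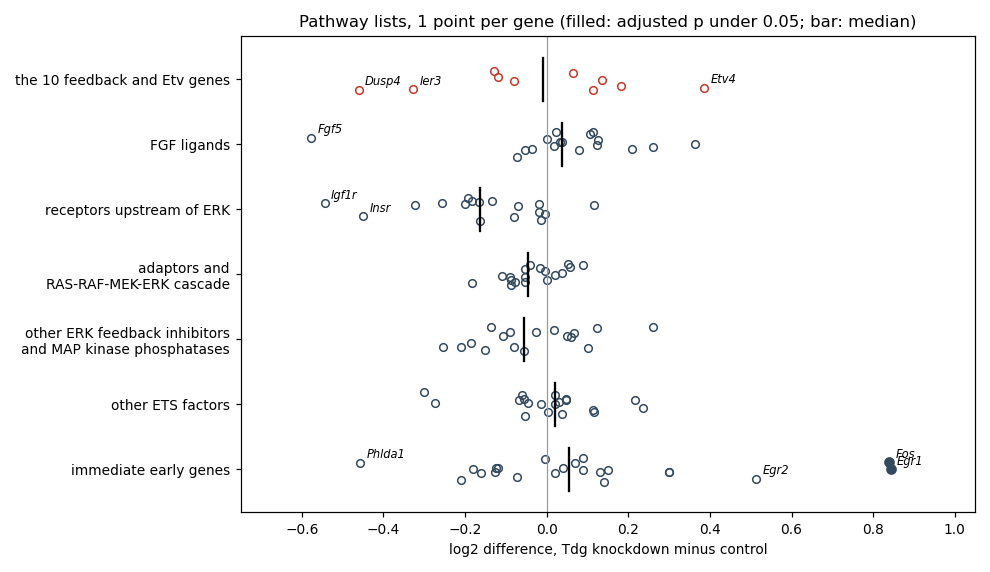
Log2 difference, Tdg knockdown minus control (horizontal axis), of every measured gene in 7 groups of the ERK pathway (rows), with filled points for an adjusted p under 0.05 and a bar for the median. The filled points are Egr1 and Fos at 0.84, and the 10 feedback and Etv genes spread from -0.46 to 0.39.

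Other named genes came close to some profiles, as the root mean square distance between values centred on their mean over the 6 arrays. The nearest gene to Dusp4 was Calb2 (0.026, itself at -0.45), to Etv4 Slc10a4 (0.029, at 0.36) and to Ier3 Jdp2 (0.042, at -0.25). Within a distance of 0.05 lay 17 genes for Dusp4, 11 for Etv4 and 6 for Ier3. For genes with small differences many more were as near, 1624 for Etv5 and 1262 for Spry4. The nearest were Cnbp to Etv5, Usp19 to Spry4, Tbcb to Dusp5, Zfyve21 to Dusp6, Cgref1 to Spry1, Irs3 to Spry2 and Tom1l1 to Spred1, at distances from 0.0069 to 0.021.

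Markers of other cell types were measured in the same arrays, and their part in the differences was not tested. The summed linear signal of 9 trophoblast markers was 4532 to 5061 in knockdown arrays and 5561 to 6207 in control arrays, which do not overlap. Most of it came from the keratin genes Krt8 (-0.38, limma adjusted p 0.150, or 0.0329 with the block) and Krt18 (-0.32, adjusted p 0.0815, or 0.0445), while Hand1 lay the other way at 0.32 (adjusted p 0.311, or 0.0572), also with no overlap between the groups, and the defining marker Elf5 was dim at 6.37. The sum of 9 primitive endoderm markers was 2015 to 2072 in knockdown arrays and 2080 to 2111 in control arrays, which do not overlap either. It was led by Lama1, with 5 of the 9 above 0 in their difference and 4 below, and Afp dim at 6.26. The smallest p-values were those of Dab2 (-0.30, limma adjusted p 0.196) and Foxa2 (0.15, adjusted p 0.460), both with no overlap between the groups. With the mean of its rows Dab2 showed only -0.035. The sums overlapped for 9 fibroblast markers, at 2266 to 2617 in knockdown arrays and 2375 to 2671 in control arrays, with Lum near the lowest signals at 3.88. They also overlapped for 9 neural markers, at 3426 to 4016 in knockdown arrays and 3668 to 3891 in control arrays, of which 1 rose, Pax6 (0.93, adjusted p 0.0145, lost without any array but knockdown replicate 3, with adjusted p 0.0589 to 0.106). With the block 3 neural markers were called higher, Pax6, Tubb3 (0.36, adjusted p 0.0423) and Map2 (0.37, adjusted p 0.0423), and 1 lower, the progenitor marker Nes (-0.60, adjusted p 0.0246). Without the block limma gave Nes an adjusted p of 0.0845, or 0.0405 without knockdown replicate 3 (-0.47). In the other 3 of these 4 lists limma called 0 markers without the block. Of the fibroblast markers, Pdgfrb (-0.26, limma adjusted p 0.143) and Acta2 (-0.16, adjusted p 0.346) had the smallest p-values, both with no overlap between the groups. At an unadjusted p under 0.05 there were 5 neural, 3 trophoblast, 1 primitive endoderm and 2 fibroblast markers, each of 9, against 12.5% of all named genes. Insr, Egr2, Fosb, Ier2, Phlda1, Fosl2, Erf, Hand1, Tubb3, Map2 and Nes are named after their values were seen.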

How the data were processed

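Transcript levels were measured in 6 arrays, 3 per group, grouped by sample title. The deposited values are log2 signals per row, which the authors made in Affymetrix Expression Console, a program named in the submitters' processing notes. Its version, summarisation and normalization are not stated there. The range of 2.26 to 14.03 gave the scale, and no further normalization was applied. Signal over background was not analysed here, and the number of arrays limits the precision.

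Of 35557 rows, 21789 list 1 gene, 1621 several and 12147 none in the platform annotation. Of the first, 21698 were matched by gene identifier to RefSeq (GRCm38.p6). The single-gene row with the highest mean was kept for each of 19938 genes. Knockdown was compared with control in limma 3.58.1 (R 4.3.3; lmFit, eBayes, two-sided), with Benjamini-Hochberg adjustment over all named genes and a threshold of 0.05. Scripts ran in Python 3.11.15 with scipy 1.17.1. The fit was tested on simulated data.

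Deviations of equally numbered arrays from their group means correlated at 0.61, 0.23 and 0.70 across genes. By a criterion of 0.1 in each of 3 pairs the numbers were taken to pair the samples, although knockdown replicate 2 correlated better with control replicate 1 (0.44). Blocked values stand where they change a call.

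The 10 genes, the lists and the rule for named genes were chosen with earlier results of these data known. That rule takes all 10 genes, Tdg, the nearest gene to each, and from each list up to 4 called genes per direction or the 2 with the smallest p. A planned comparison of protein sequences was not made. Alternatives are given in the closing section.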

Additional observations from a re-analysis of the deposited data

How the results depend on the processing

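For the 10 genes, 130 values were recomputed under other settings, and 0 changed sign, 124 stayed on the same side of the threshold and 6 passed it. Many of these signs could not change. The block, leaving out the genes of lowest mean, the trended prior and testing all rows alter only the p-value of a gene. The mean of a gene's rows alters only a gene with several rows. The calls of the 10 genes went to 1 higher (Etv4) and 2 lower (Dusp4, Ier3) with the replicate block, to 1 higher (Etv4, adjusted p 0.0480) and 1 lower (Dusp4, 0.0425) with the 33.3% of genes of lowest mean left out, which leaves fewer tests, and to 1 lower (Dusp4, 0.0382) with a trended robust prior. None of the 10 was called after quantile normalization, with arrays centred on their median, with the mean of a gene's rows or with all rows tested. Over those 4 settings the adjusted p ran from 0.0567 to 0.22 for Dusp4 and from 0.101 to 0.238 for Etv4. The background share was 3.08% with the block, 3.34% without these dim genes and 2.24% with the trended prior.

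Among all named genes, 48 were called higher and 110 lower. The counts were 214 and 400 with the replicate block, 139 and 305 without these dim genes, 140 and 306 with the trended prior, and 2 and 10 with all rows tested, where the calls of Fos and Pax6 were lost (adjusted p 0.12 and 0.0769). With arrays centred on their median 29 were higher. Leaving out 1 array gave 0 to 132 higher and 0 to 159 lower, with 1510 to 2924 genes at an unadjusted p under 0.05. In the blocked fits without a number, 0 and 0 were called by limma (1584 to 4486 at an unadjusted p under 0.05), and the Tdg difference was -3.11, -3.03 and -2.96. Leaving out 1 array, the median of the receptors ran from -0.18 to -0.13 and that of the other feedback inhibitors from -0.072 to 0.0067. With the block and without both arrays numbered 3, the receptors had -0.12. Beyond the 10 genes, Fgf5 and Igf1r passed without the dim genes (adjusted p 0.0238 and 0.0415) and with the trended prior (0.0179 and 0.0319), as did Krt18 (0.0320 and 0.0154), Elk3 without the dim genes (0.0398) and Krt8 with the trended prior (0.0481). After quantile normalization Fgf5 passed by a hair (limma adjusted p just under 0.05). The block changed no other call of the pathway and marker genes than those given with it. The cause of these changes was not tested.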
